A study of Mus musculus with 5 samples.

Results

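Blood vessel endothelial cells of the embryonic mouse limb were taken from 1 forelimb and 1 hindlimb single-cell library. A kept cell was selected when it held at least 1 UMI (a counted molecule) of 3 or more of the 6 endothelial genes *Pecam1*, *Cdh5*, *Kdr*, *Emcn*, *Tie1* and *Egfl7*. It was dropped when it held UMIs of 2 or more of the 4 lymphatic genes *Prox1*, *Mmrn1*, *Flt4* and *Reln*. The rule chose 394 of 22057 kept forelimb cells and 320 of 20505 kept hindlimb cells, 714 of 42562 in all (1.68%). The lymphatic genes removed a further 93 and 90 cells. The forelimb share was 1.79% and the hindlimb share 1.56%.

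The study sought a way to disrupt the penis bone while sexual differentiation and the rest of the skeleton stayed normal. For this it compared, among other data, single cells of the developing penis, forelimbs and hindlimbs. All libraries carry the label C57BL/6N, with no allele or treatment named, while the methods of the study give C57BL/6J for all mice. The limb libraries come from embryos of day 15 by the labels and by the dissection methods, while other parts of the study's text give days close to it. The methods name 6 male embryos without saying how they were divided between libraries. The comparison group is 3 libraries of penis from day 6 after birth (P6), from which the methods say the prepuce was removed. The same marker rule chose 1220 of 19581 kept penis cells (6.23%), with 423, 456 and 341 cells in penis libraries 1, 2 and 3. For the penis samples the methods name 3 male P6 mice from 2 litters. The labels do not say which animal or litter each library came from, so p-values measure the spread between these libraries only.

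Endothelial cells line every blood vessel. They receive vascular endothelial growth factor through the receptor encoded by *Kdr*, hold each other through the cadherin encoded by *Cdh5*, and form arteries under Notch signaling and veins under the nuclear receptor encoded by *Nr2f2*. In the embryonic limb they form a capillary network that is remodeled as cartilage and bone appear, and cartilage itself holds no vessels.

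The data bear out the label for the cells that held 4 or more of the 6 markers. They do not bear it out for those that held exactly 3 as a set, which lay closer to the other limb cells than to cells with 6. Of the 714 cells, 169 (23.7%) held exactly 3 markers, 70 held 4, 201 held 5 and 274 held 6. The markers chose the cells, so the check used 32 other genes that are known for endothelial expression in general. Their summed level was 426 to 500 CPM (UMIs per 1000000 UMIs of the summed cells) in limb cells with 0, 1 or 2 markers. It was 779 CPM in forelimb cells and 840.5 CPM in hindlimb cells with exactly 3, and rose to 4039 and 3727 CPM at 4 markers, 6321 and 7096 CPM at 5, and 7450 and 7735 CPM at 6. The summed level of 8 mesenchyme markers, such as the collagen gene *Col1a1* and the limb factor gene *Prrx1*, was 11702 and 10880 CPM in cells with exactly 3 markers. This was close to the 11126 and 10570 CPM of cells with 2 markers and above the 1861 and 1560 CPM of cells with 6. Cells with exactly 3 markers also held a median of 5 (forelimb) and 4 (hindlimb) of the 32 genes. The medians were 2 and 2.5 in cells with 2 markers and 21 and 24 in cells with 6. At least 5 of the 32 genes were held by 54.7% and 45.8% of cells with exactly 3 markers and by 18.4% and 18.5% of cells with 2. Whether the cells with exactly 3 markers are a mixture was not tested. Their median depth was 8424 and 10136 UMIs, against 6034 and 7501 in cells with 4 or more markers. In the penis 115 of 1220 cells (9.43%) held exactly 3 markers. Many results are therefore given for the rule and also for the 545 limb cells (76.3%) with 4 or more markers. Where no number of markers is named, a value is for the rule alone.

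**Figure D1:**
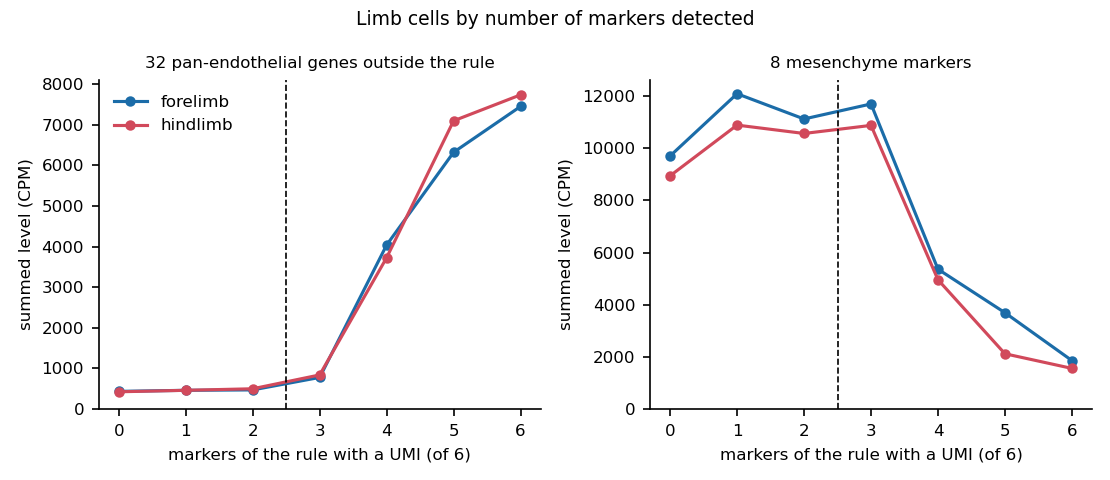
Summed level in CPM (y axes) of 32 endothelial genes outside the rule (left) and 8 mesenchyme markers (right) against the number of the 6 rule markers detected in a cell (x axes), for forelimb and hindlimb. Each point sums all cells of 1 library at that number, and the dashed line marks the limit of the rule. The endothelial sum is at most 840.5 CPM up to 3 markers and at least 3727 CPM from 4 markers on, while the mesenchyme sum falls over the same step.

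The marker shares describe the rule and carry no test. *Pecam1* held a UMI in 96.2% of forelimb and 95.6% of hindlimb members, but also in 28.1% and 26.6% of all other kept limb cells, whose median depth was 5347 and 6039 UMIs against 6218 and 8090 in members. *Cdh5* held one in 86.3% and 82.2% of members and in 1.44% and 1.59% of other cells. *Tie1*, which encodes a receptor of the angiopoietin pathway, was the marker with the lowest share in members, at 50.5% and 51.9%, against 0.586% and 0.654% of other cells. Just outside the rule, the cells with 2 markers numbered 919 and 898, and their usual pair included *Pecam1*, which was present in 92.4% and 89.9% of them. Among cells with exactly 3 markers, *Cdh5* was present in 46.5% and 43.4%.

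The libraries held 28266 (forelimb) and 25937 (hindlimb) barcodes with 156060382 and 162335993 UMIs before filtering, and 8411 to 11397 barcodes with 70554067 to 100636762 UMIs in the penis libraries. The forelimb and hindlimb libraries had 203 barcodes in common, and every other pair of libraries between 20 and 88. Of the limb members, 79 and 62 lay in the top 10% of doublet scores of their library (20.1% and 19.4%). Defining markers of red blood cells were at a summed 8779 CPM in forelimb and 6059 CPM in hindlimb members against 8924 and 9263 CPM in the other cells, and their part in the results was not tested. The epithelial gene *Epcam* stood at 5.07 and 1.40 CPM and the white blood cell gene *Ptprc* at 2.54 and 6.42 CPM in members. The 6 epidermis markers summed to 90.8 and 20.7 CPM in members against 103 and 97.1 CPM in the rest. With 4 or more markers of the rule they summed to 18.8 and 20.1 CPM. The 6 white blood markers summed to 117 and 167 CPM in members against 397 and 371 CPM in the rest. The Schwann gene *Sox10* was at 1.78 and 1.40 CPM in members. The 4 Schwann lineage markers summed to 8.37 and 10.9 CPM in members against 31.9 and 30.1 CPM in the rest. The pericyte gene *Pdgfrb* was at 37.0 and 30.7 CPM in members and 37.5 and 35.4 CPM in the rest. Of 9 mural markers, 2 were at least 2-fold higher and 1 lower in members of both libraries. Their sum was 248 and 243 CPM in members against 278 and 237 CPM in the rest.

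Among genes at 50 CPM or more in the higher set of both libraries, those with the largest ratios to the rest of the limb were *Fabp4*, *Cd93* and *Gpihbp1*. With a 2-fold limit in both libraries and at least 20 UMIs, 644 of 20578 genes outside the rule were higher in members (3.13%) and 566 were lower (2.75%). The counts for cells with 4 or more markers were 807 (3.92%) and 1851 (8.99%) of 20598. Of the 644 higher genes 632 were also among the 807, and 537 of the 566 lower genes were among the 1851. The cells were chosen by their expression, so this contrast is a description and has no test.

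*Fabp4*, which encodes a fatty acid carrier (chr3:10204088-10208576, minus strand, GRCm38), had the largest ratio of these. It was at 985 CPM in forelimb and 639.6 CPM in hindlimb members against 12.0 and 8.03 CPM in the other cells, a log2 ratio of 6.25 and 6.15 after adding 1 CPM. In cells with 4 or more markers it reached 1371 and 914 CPM, and in cells with exactly 3 it was at 71.7 and 12.8 CPM. *Cd93*, a surface lectin gene (chr2:148436640-148443563, minus strand), was at 285 and 323 CPM against 4.26 and 5.26 CPM. *Gpihbp1*, whose product carries lipoprotein lipase across capillary endothelium, was at 252 and 232 CPM against 2.32 and 3.72 CPM. In both libraries these 3 genes were low in the other cells and high in members.

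*Prnd*, which encodes a relative of the prion protein, came next, at 144 and 174 CPM against 1.95 and 2.12 CPM. The adhesion receptor genes *Adgrl4* (99.7 and 119 CPM) and *Adgrf5* (223 and 262 CPM) were also among the leading genes, with 1.12 and 1.78 CPM and 3.52 and 5.23 CPM in the rest. The transcription factor genes *Sox7*, *Sox17* and *Sox18*, a group with known roles in vessel formation, were at 87.5 and 111 CPM, 70.5 and 80.1 CPM, and 105 and 95.7 CPM in members. None of the 3 *Sox* genes was above 3.37 CPM in the rest of either library. *Flt1*, which encodes a receptor that binds vascular endothelial growth factor, was at 553 and 597 CPM against 23 and 20.8 CPM. *Plvap*, a gene of the diaphragms that span pores of capillary endothelium, was at 179 and 198 CPM against 3.44 and 3.92 CPM, and the axon guidance receptor gene *Robo4* was at 78.7 and 82.3 CPM against 0.973 and 1.36 CPM. All 25 genes with the largest ratios were lower in cells with exactly 3 markers than in cells with 4 or more, in both libraries.

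**Figure D2:**
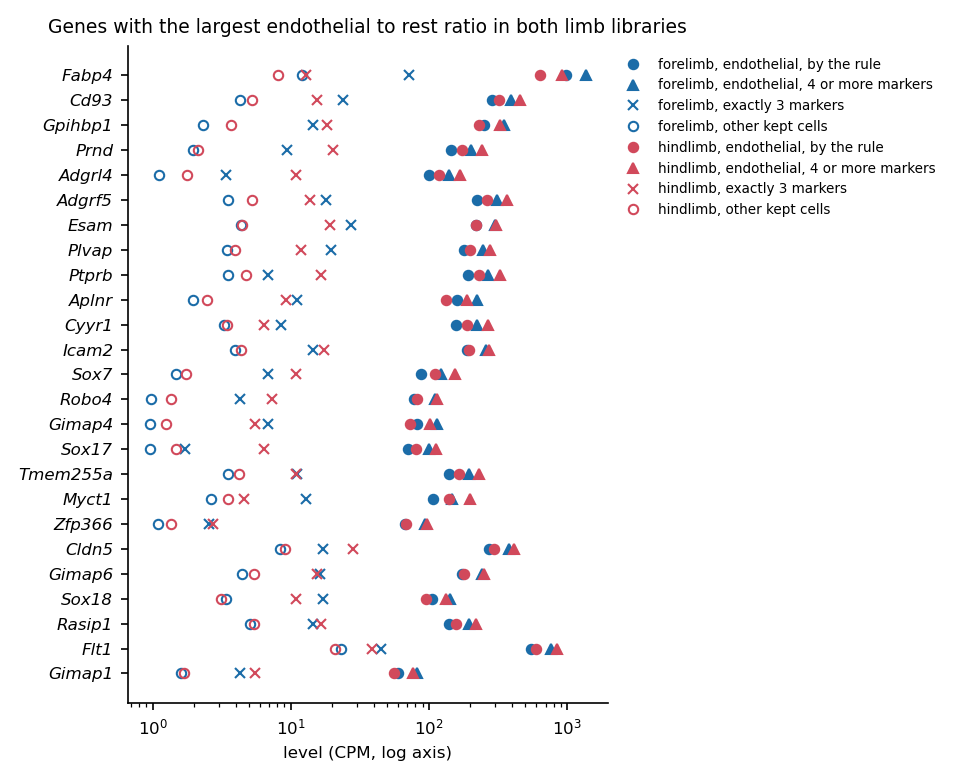
Level in CPM on a log axis of the 25 genes with the largest ratio, at 50 CPM or more in the higher set, between endothelial members and all other kept limb cells, with no replicate library for either limb. Filled circles are members by the rule, triangles members with 4 or more markers, crosses cells with exactly 3 markers, and open circles the other kept cells. In each row the crosses lie between the open circles and the triangles.

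The start regions of the 25 genes picked for their ratio to the rest were searched for a short motif. Whether these genes vary together or share a regulator was not tested. RefSeq windows of 250 bases before to 50 bases after a start (GRCm38.p6) were found for 13 of the 25 genes, in 15 windows. The letters AGGAAG, on either strand and with overlaps counted, lie at the core of sites that ETS factors bind in many endothelial genes. They were found in 10 of the 15 windows (66.7%) and in 9 of 20 windows of the 32 endothelial genes outside the rule (45.0%), and the 2 lists share genes. Of all 32851 windows in the table, 11613 (35.4%) held them. A match describes letters and is not a measured site. Capitals mark the matches in the 4 windows shown, of which the last holds none.
Flt1 (chr5:147725962-147726261, minus strand): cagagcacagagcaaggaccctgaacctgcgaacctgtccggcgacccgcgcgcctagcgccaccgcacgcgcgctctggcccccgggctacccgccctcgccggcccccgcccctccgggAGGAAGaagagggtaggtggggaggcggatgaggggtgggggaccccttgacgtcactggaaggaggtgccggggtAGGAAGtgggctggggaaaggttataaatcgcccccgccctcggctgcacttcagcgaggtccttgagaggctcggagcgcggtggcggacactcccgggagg
Robo4 (chr9:37401722-37402021, plus strand): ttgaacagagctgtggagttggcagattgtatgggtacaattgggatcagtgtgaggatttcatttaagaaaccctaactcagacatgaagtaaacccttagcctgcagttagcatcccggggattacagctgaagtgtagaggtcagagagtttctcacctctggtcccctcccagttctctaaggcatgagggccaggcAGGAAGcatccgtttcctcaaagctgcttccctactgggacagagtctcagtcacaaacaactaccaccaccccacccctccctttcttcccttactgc
Adgrl4 (chr3:151437632-151437931, plus strand): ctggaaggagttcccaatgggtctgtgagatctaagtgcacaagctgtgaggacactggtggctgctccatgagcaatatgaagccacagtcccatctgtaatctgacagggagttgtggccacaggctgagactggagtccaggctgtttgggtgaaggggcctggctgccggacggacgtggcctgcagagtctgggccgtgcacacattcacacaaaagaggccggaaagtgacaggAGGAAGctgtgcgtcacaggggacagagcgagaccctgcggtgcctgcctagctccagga
Cldn5 (chr16:18776597-18776896, plus strand): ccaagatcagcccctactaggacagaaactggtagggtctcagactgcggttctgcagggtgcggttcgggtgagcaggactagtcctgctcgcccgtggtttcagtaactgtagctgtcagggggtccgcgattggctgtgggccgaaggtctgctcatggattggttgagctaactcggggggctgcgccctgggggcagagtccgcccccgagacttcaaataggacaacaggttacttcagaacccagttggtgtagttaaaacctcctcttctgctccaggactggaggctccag

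Of the 32 endothelial genes outside the rule, 30 were higher in members, with median log2 ratios of 4.15 and 4.19 in the limb libraries. The median over all 20578 genes was -0.08 and -0.09. The exceptions were *Erg* and *Gata2*. The ETS factor gene *Erg* stood at 132 and 147 CPM in members and at 93.2 and 114 CPM in the rest, which is a small difference for a gene widely used as an endothelial marker. *Gata2* was at 18.8 and 26.5 CPM against 26.8 and 27.8 CPM. Depth was then made equal by thinning each cell with at least 2000 UMIs to that number and leaving out shallower cells. This held 367 of 394 and 301 of 320 members, and 19201 of 21663 and 18569 of 20185 other cells. The median share of cells with a UMI over the 32 genes was 24.0% and 24.7% in members and 0.656% and 0.685% in the rest. Without thinning the shares were 51.0% and 53.1% in members and 1.92% and 2.21% in the rest. The tight junction gene *Cldn5* held a UMI in 43.1% and 42.5% of thinned members and in 0.577% of the thinned rest of the forelimb.

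Among the ligands and receptors of vascular endothelial growth factor and angiopoietin, the genes called higher in members encode receptors. Outside the rule, 3 of 11 genes were higher, namely *Flt1*, *Tek* (113 and 104 CPM against 21.2 and 23 CPM) and the co-receptor gene *Nrp1* (297 and 308 CPM against 118 and 101 CPM). The growth factor gene *Vegfa* was at 36.0 and 33.5 CPM in members, below the 63.7 and 62.3 CPM of the rest. In cells with 4 or more markers *Vegfa*, *Vegfd* and *Angpt1*, which encodes the agonist of the receptor TEK, were at least 2-fold lower than in the rest of both libraries. The ligand gene *Vegfc* was at 36.8 and 65.9 CPM in members and 26.5 and 29.6 CPM in the rest, over 2-fold in the hindlimb alone. The receptor gene *Nrp2* was at 179.9 and 162 CPM against 77.3 and 96.9 CPM and was not called.

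In the Notch pathway 6 of 16 genes were higher and 8 of 16 with 4 or more markers. The ligand gene *Dll4*, which marks arteries and sprouting tips, was at 41.1 and 51.9 CPM against 1.10 and 0.997 CPM. The receptor gene *Notch4* was at 31.0 and 31.3 CPM against 1.33 and 1.47 CPM, and *Nrarp*, a target that dampens the signal, was at 60.1 and 84.8 CPM against 3.31 and 3.65 CPM. *Notch2* was at 33.5 and 29.9 CPM in members and 67.5 and 73.7 CPM in the rest, a difference called with 4 or more markers. Of the tip cell genes, 5 of 8 were higher. These included *Apln*, which encodes the ligand of the receptor encoded by *Aplnr* (66.0 and 72.3 CPM against 2.49 and 2.91 CPM), and *Esm1* (20.3 and 26.8 CPM against 0.670 and 0.692 CPM).

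In the pathway of BMP9, the receptor ALK1 and endoglin, 2 of 14 genes were higher, the receptor gene *Acvrl1* (45.4 and 46.0 CPM against 9.61 and 7.63 CPM) and *Eng* (192 and 195 CPM against 18.1 and 17.5 CPM). The ligand genes *Gdf2* and *Bmp10* had at most 0.254 CPM in members. The target genes *Id1* (285 and 315 CPM against 419 and 411 CPM) and *Id3* (403 and 375 CPM against 398 and 379 CPM) did not reach 2-fold. Among 15 Wnt and barrier genes, 1 was lower by the rule (*Foxf2*), 5 were lower with 4 or more markers, and the list median was -0.38 and -0.44. The rule called 4 higher, including the transporter genes *Abcb1a* (10.7 and 7.53 CPM against 0.389 and 0.519 CPM) and *Abcg2* (137 and 141 CPM against 29.7 and 27.7 CPM). The brain barrier gene *Mfsd2a* was at 2.03 and 0.837 CPM in members and at 2.94 and 3.45 CPM in the rest.

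Most basement membrane and caveolar genes were higher in members. Of the basement membrane genes, 8 of 12 were higher, among them *Col4a1* at 1363 and 1479 CPM against 234 and 202 CPM and *Col15a1* at 335 and 326 CPM against 24.1 and 25.1 CPM. Of the 6 genes of caveolae, the membrane pits that carry cargo across endothelium, 5 were higher, with *Cav1* at 633 and 639 CPM against 39.3 and 36.5 CPM. Of the junction genes 6 of 12 were higher, and *Ocln*, a gene of tight barriers, was at 1.78 and 1.12 CPM. Of 8 flow-responsive and nitric oxide genes, 4 were higher. The synthase gene *Nos3* was at 36.8 and 33.2 CPM against 1.04 and 1.07 CPM, and the flow-induced factor gene *Klf2* was at 239.5 and 216 CPM against 267 and 244 CPM.

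Leukocyte adhesion was split. *Icam1*, *Icam2* and *Mcam* were higher in members, while the selectin genes *Sele* (2.28 and 1.12 CPM) and *Selp* (2.28 and 1.40 CPM) were near 0 and *Vcam1* was lower, at 43.1 and 38.8 CPM against 97.7 and 102 CPM. Cell cycle genes did not separate the members. None of 16 S phase genes and none of 16 G2 and M phase genes reached 2-fold, and *Mki67*, a gene of dividing cells, was at 147 and 162 CPM against 142 and 146 CPM. Of the genes that set limb position, 5 of 20 were lower in members, all of them posterior *Hox* genes. *Hoxd13*, which acts in the hand and foot plate, was at 14.0 and 10.6 CPM against 35.9 and 40.0 CPM. *Hoxb7* was the vascular *Hox* gene that was higher, at 10.7 and 16.7 CPM against 0.814 and 0.948 CPM.

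Of the 10 genes with the lowest ratios in members among those at 50 CPM or more in the rest of both libraries, 9 are known from cartilage, and the other was the macrophage gene *Lyz2* (23.6 and 10.3 CPM against 109 and 89.3 CPM). *Col2a1*, the main cartilage collagen gene, was at 116 and 74.8 CPM against 548 and 650.5 CPM, and *Sox5*, which acts with *Sox9* in cartilage, was at 39.3 and 49.7 CPM against 173 and 221 CPM. All 5 chondrocyte markers and all 6 muscle markers were at least 2-fold lower in both libraries. Of the 8 mesenchyme markers, 3 were lower by the rule and 8 with 4 or more markers. *Col1a1* was at 1589 and 1163 CPM by the rule, at 805 and 452 CPM with 4 or more markers, and at 2937 and 2498 CPM in the rest.

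Limb and penis endothelial cells were compared to ask what the endothelium of the embryonic limb expresses that the endothelium of the P6 penis does not. Limb and penis differ in organ, age and library here, and these cannot be told apart. The rule lets a member hold UMIs of 1 lymphatic gene. *Prox1* held a UMI in 5.58% and 6.25% of limb members and in 31.4%, 30.0% and 36.4% of penis members. Its level was 8.88 and 8.09 CPM against 79.1, 72.1 and 77.7 CPM. *Flt4* (34.5 and 42.1 CPM against 17.7 to 31.7 CPM) and *Mmrn1* (8.63 and 5.86 CPM against 0.838 to 1.18 CPM) were higher in the limb, and *Reln* overlapped. The part of such cells in what follows was not tested. By edgeR's quasi-likelihood test on UMIs summed per library (2 limb and 3 penis libraries, adjusted p under 0.01 and at least 2-fold), 1182 of 13874 genes were higher in the limb (8.52%) and 1036 lower (7.47%). Among cells with 4 or more markers 793 of 13092 were higher (6.06%) and 889 lower (6.79%), and 659 of the higher and 762 of the lower genes were shared with the calls by the rule.

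Fatty acid genes were mostly higher in the limb. Of 9 genes, 5 were higher and 2 lower, by the rule and with 4 or more markers alike, with a median log2 fold-change of 1.93 against 0.00 over all genes tested. *Fabp4* was at 985 and 639.6 CPM in the limb libraries and at 136, 156 and 232 CPM in the penis libraries, so the groups did not overlap. Its log2 fold-change was 2.22 ± 0.19 (SE, edgeR adjusted p = 5.8e-07). *Cd36*, a fatty acid receptor gene, was at 125 and 112 CPM in the limb and 19.8, 27.0 and 45.0 CPM in the penis (log2 fold-change 1.98 ± 0.20, edgeR adjusted p = 3.3e-06). *Tcf15* and *Meox2* encode partner factors that induce fatty acid uptake in heart and muscle endothelium. *Tcf15* was at 76.9 and 69.2 CPM against 13.0, 8.17 and 10.0 CPM (2.80 ± 0.16, edgeR adjusted p = 1.3e-08), and *Meox2* at 114 and 112 CPM against 23.7, 23.9 and 30.0 CPM (2.13 ± 0.11, edgeR adjusted p = 6.9e-09). The retinol carrier gene *Rbp7* went the other way, at 7.61 and 5.58 CPM against 30.3, 31.4 and 35.0 CPM (-2.28 ± 0.19, edgeR adjusted p = 4.4e-07), as did *Pparg*. *Gpihbp1* differed by less than 2-fold, with a log2 fold-change of 0.38 ± 0.08.

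All 11 genes of fetal growth and timing were higher in the limb, by the rule and with 4 or more markers, with a median log2 fold-change of 2.94. *Igf2*, the fetal growth factor gene, was at 739 and 688 CPM in the limb and 56.5, 66.6 and 55.3 CPM in the penis (3.56 ± 0.10, edgeR adjusted p = 2.3e-11). *Igf2bp1*, which encodes an RNA-binding protein of embryonic tissue, was at 101 and 111 CPM against 0.684, 1.89 and 1.47 CPM (6.24 ± 0.20, edgeR adjusted p = 8.5e-11). The imprinted gene *Mest* was at 1519 and 1598 CPM against 289, 257 and 286 CPM, and it was the member of this list that was also at least 2-fold above the rest of the limb, at 675 and 623 CPM. The other 10 members were within 2-fold of the rest of the limb in at least 1 library, such as *H19* at 960.5 and 991 CPM in the rest and 894 and 1111 CPM in endothelial cells.

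**Figure D3:**
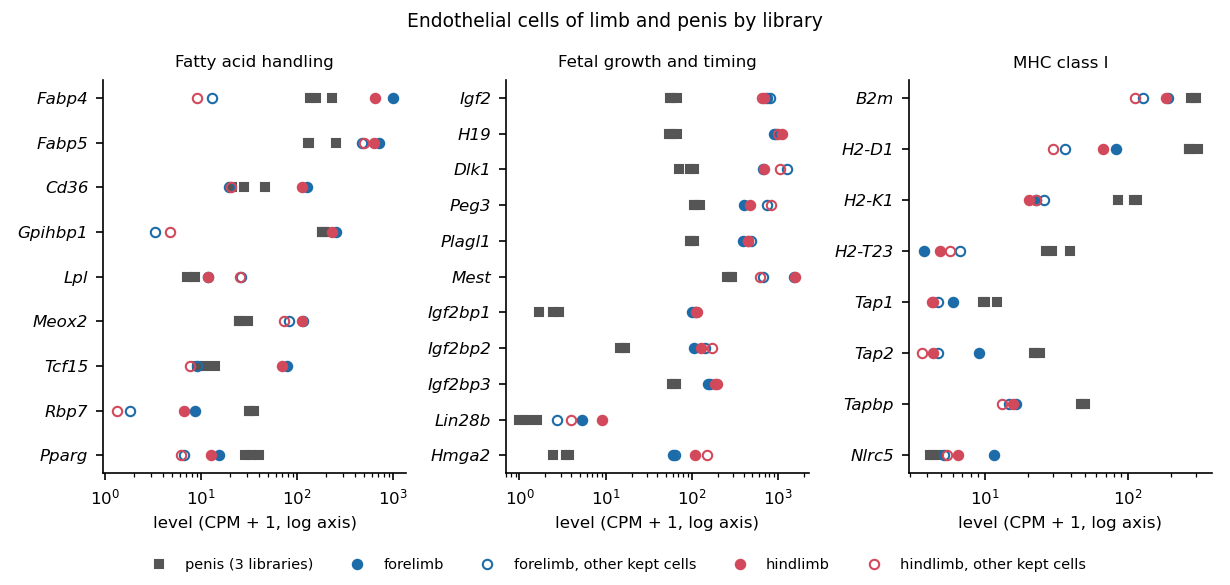
Level in CPM plus 1 on log axes of genes of fatty acid handling, fetal growth and timing, and MHC class I in endothelial cells of each library. Squares are the 3 penis libraries, filled circles the forelimb and hindlimb endothelial cells, and open circles the other kept cells of the same limb libraries. The filled circles lie to the right of the penis squares for *Fabp4*, *Fabp5*, *Cd36*, *Tcf15*, *Meox2* and all fetal genes. They lie to the left for *H2-D1*, *H2-K1* and *H2-T23*.

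Part of the dividing cell genes were also higher in the limb, and the other kept cells differed the same way. In these other cells the G2 and M phase genes summed to 2108 and 2009 CPM in the limb and 765 to 874 CPM in the penis. The S phase genes summed to 920.3 and 903 CPM against 481 to 497 CPM. In the interaction described below, 0 genes of either list were positive, and 2 of G2 and M phase were negative by the rule. Of 16 genes each, 8 of G2 and M phase and 5 of S phase were higher, and no gene was lower, with median log2 fold-changes of 0.96 and 0.86. The topoisomerase gene *Top2a* was at 228 and 243 CPM against 115, 116 and 105 CPM (1.06 ± 0.08, edgeR adjusted p = 2.7e-07), and *Ube2c* was at 182 and 169 CPM against 62.9, 62.6 and 35.6 CPM.

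MHC class I genes, which serve antigen presentation, were mostly lower in the limb. Of 8 MHC class I genes, 6 were lower and 1 (*Nlrc5*, a transcriptional activator of the group) was higher. The counts were the same with 4 or more markers. The other kept cells differed the same way. There the 8 genes summed to 217 and 189 CPM in the limb and 372 to 384 CPM in the penis. In endothelial cells the sums were 336 and 300.3 CPM against 732 to 831 CPM. In the interaction described below, 2 of the 8 genes were negative and 0 positive. *H2-D1* was at 81.4 and 66.1 CPM in the limb and 309, 265 and 265 CPM in the penis (-1.93 ± 0.11, edgeR adjusted p = 1.6e-08). Of 7 leukocyte adhesion genes tested, 2 were lower (*Sele* and *Selp*) and the median log2 fold-change was -0.43. The selectin gene *Sele*, expressed by activated endothelium, was at 2.28 and 1.12 CPM in the limb and 106, 104 and 120 CPM in the penis (-5.98 ± 0.20, edgeR adjusted p = 1.2e-10). *Vwf*, which encodes the platelet-binding von Willebrand factor, was at 19.3 and 26.0 CPM against 142, 128 and 172 CPM (-2.71 ± 0.15, edgeR adjusted p = 8.2e-09). *Bmx*, a kinase gene of arterial and endocardial endothelium, was at 3.30 and 1.67 CPM against 53.3, 55.9 and 63.2 CPM (-4.50 ± 0.22, edgeR adjusted p = 3.1e-09). The chemokine gene *Pf4*, best known from platelets, was at 28.2 and 67.8 CPM against 780.4, 724 and 699.6 CPM (-3.96 ± 0.23, edgeR adjusted p = 1.6e-08). The platelet genes *Gp9* and *Gp1bb* were at most at 1.27 CPM in every endothelial sum, and the rest of the penis held *Pf4* at 73.3 to 78.2 CPM.

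Pan-endothelial genes were on balance lower in the limb, by an amount that depended on the cells with 3 markers. Of the 32 genes, 9 were lower by the rule, with a median log2 fold-change of -0.73, and 4 with 4 or more markers, with a median of -0.35. Those 4 were the receptor genes *Tek*, *Calcrl* and *Clec14a* and the factor gene *Tal1*. *Tek* was at 113 and 104 CPM against 431, 438 and 487 CPM (-2.07 ± 0.09 by the rule and -1.75 with 4 or more markers, edgeR adjusted p = 1.2e-09 and 2.6e-09). *Calcrl*, the adrenomedullin receptor gene, was at 84.0 and 86.0 CPM against 470.3, 476 and 585 CPM. The summed level of the mesenchyme markers was 5404 and 4681 CPM in the limb sums and 2548 to 3930 CPM in the penis sums by the rule. For cells with 4 or more markers it was 2741 and 1966 CPM against 1898 to 2953 CPM.

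Artery and Notch genes were called in both directions, and vein genes lower. The 2 higher of 16 in each of the artery and Notch lists, and the 1 higher of 8 tip cell genes, stand beside the 8.52% of all genes tested. Of all genes tested 7.47% were lower. Of 16 artery genes, 2 were higher, the gap junction gene *Gja5* (10.4 and 30.1 CPM against 7.75, 4.82 and 5.88 CPM) and the guidance receptor gene *Unc5b* (44.7 and 80.4 CPM against 27.6, 23.5 and 24.1 CPM), and 6 were lower by the rule and 4 with 4 or more markers. Of 6 vein genes tested, 3 were lower, including *Nr2f2* at 117 and 132 CPM against 275, 269.8 and 333 CPM (-1.24 ± 0.10, edgeR adjusted p = 3.7e-07). In the Notch pathway, the target genes *Nrarp* (60.1 and 84.8 CPM against 30.3, 23.7 and 26.5 CPM) and *Heyl* were higher, while 4 of 16 were lower, of which the ligand genes *Jag1* and *Dll1* were also called with 4 or more markers. Of 8 tip cell genes *Kcne3* was higher and *Angpt2* and *Trp53i11* were lower. In the list of BMP9, ALK1 and endoglin genes, 0 of 12 tested passed in edgeR, 8 had an unadjusted p under 0.05, and DESeq2 called 0.

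In the next 5 lists the calls by the rule were lower in the limb, except for *Hoxa10*. Of all genes tested 8.52% were higher and 7.47% lower by the rule, and 6.06% and 6.79% with 4 or more markers. Calls of 1 or 2 genes in a list are therefore not read as a result for that list. Of 13 Wnt and barrier genes tested 7 were lower by the rule, and 4 of 11 with 4 or more markers, with the transporter gene *Abcb1a* at 10.7 and 7.53 CPM against 73.0, 65.6 and 91.8 CPM. Of the junction genes 4 of 12 were lower by the rule and 3 with 4 or more markers. Of 11 ligand and receptor genes of vascular endothelial growth factor and angiopoietin outside the rule 3 were lower, namely *Tek*, *Nrp1* and *Angpt2*. Of 15 limb position genes tested *Hoxa10* was higher and *Isl1*, *Hoxd9* and *Hoxd10* were lower. With 4 or more markers *Hoxa10* was not called (log2 fold-change 0.69, edgeR adjusted p = 0.039) and the other 3 were still lower. Of 12 basement membrane genes 2 were lower by the rule, *Sparc* and the laminin gene *Lama5*, and *Lama5* also with 4 or more markers, at 8.12 and 4.47 CPM against 38.1, 32.5 and 33.8 CPM.

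Outside the lists, *Foxc2* and *Pcp4l1* were among the 15 genes with the largest falls in the limb of those at 50 CPM or more in every penis library and with groups that did not overlap. *Foxc2*, a factor gene of lymphatic vessels and valves, was at 3.04 and 1.67 CPM in the limb and 64.3, 57.0 and 72.1 CPM in the penis (-4.74 ± 0.22, edgeR adjusted p = 2.1e-09). The lymphatic rule gene *Prox1* differed the same way, as given above. *Pcp4l1* was at 15.5 and 18.1 CPM against 428, 394 and 394 CPM (-4.60 ± 0.12, edgeR adjusted p = 2.3e-11).

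Several of the largest rises in the limb, at 50 CPM or more in both limb libraries, were in genes of other cell types. By the rule, no gene picked as one of these largest rises was called higher in members than in the rest of the limb. With 4 or more markers most were called lower than in the rest, namely *Cma1*, *Cpa3*, *Hs6st2*, *Agtr2*, *Hdc*, *Col2a1*, *Foxp2*, *Tmeff2*, *Ebf2* and *Thbs1*. *Igf2bp1*, *Hmga2*, *Dnah12* and *H19* were not called, and *Hbb-y* went the other way. *Hbb-y*, an embryonic globin gene, was at 409 and 294 CPM in limb endothelial cells and at most 0.456 CPM in the penis, against 173 and 154 CPM in the rest of the limb. In limb cells with 4 or more markers it was at 575 and 414 CPM and was called higher than in the rest. The mast cell protease genes *Cma1* and *Cpa3* were at 205 and 265 CPM and 178 and 187 CPM against at most 0.883 CPM in the penis, but were at 620 and 517 CPM and 534 and 433 CPM in the rest of the limb. In hindlimb cells with 4 or more markers they were at 12.4 and 8.43 CPM and in those with exactly 3 at 841 and 595 CPM. The forelimb had the opposite order, with 270.1 and 233 CPM against 51.2 and 47.8 CPM. *Col2a1* rose in the same way, with 116 and 74.8 CPM against 4.12 to 5.70 CPM, below the 548 and 650.5 CPM of the rest of the limb. Of the fixed marker lists, 6 of 6 white blood, 5 of 5 muscle and 4 of 5 chondrocyte markers tested were higher in limb than in penis endothelial sums. The part of these cells in the limb-penis differences was not tested. The interaction described below cannot decide it, since genes of other cell types passed it. By the rule *Cma1* (4.31), *Cpa3* (3.16) and *Col2a1* (1.75) had positive log2 interactions, while *Hbb-y* was not called. With 4 or more markers *Col2a1* was still called, and *Cma1* and *Cpa3* were not.

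The interaction asked whether the limb-penis difference of a gene in endothelial cells departed from that in all other kept cells of the same libraries, with the library as a block. Of 20228 genes, 1055 had a positive interaction (5.22%), with limb minus penis higher in endothelial cells than in the rest, and 514 a negative one (2.54%). The counts were 614 and 492 with 4 or more markers, and the 1055 fell to 633 without the forelimb library and 664 without the hindlimb library. *Fabp4* had an interaction of 2.64 ± 0.20 on the log2 scale (edgeR adjusted p = 1.0e-07), and the rest held 8.03 to 15.7 CPM of it in limb and penis. *Igf2* and *H19* were higher in the limb in all cells, but more so in the endothelial sums. Their interactions were 2.13 ± 0.08 (edgeR adjusted p = 1.5e-10) and 2.36 ± 0.09 (edgeR adjusted p = 2.0e-10). For *Mest* the interaction was 0.44 ± 0.07, under 2-fold. Markers of other cell types had positive interactions too, namely 7 of 8 mesenchyme and 5 of 6 white blood markers by the rule. With 4 or more markers these were 6 and 3. Of the chondrocyte markers 2 of 5 were positive by the rule, and of the muscle markers 0 of 6. A positive interaction is thus not by itself a trait of endothelial cells. *Tcf15* had a negative interaction of -1.39 ± 0.31 by the rule (edgeR adjusted p = 0.0036), and its level in the rest went from 0.281 to 0.499 CPM in the penis to 8.14 and 6.66 CPM in the limb. For cells with 4 or more markers its interaction was -1.06, with an edgeR adjusted p of 0.025.

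The collagen gene *Col15a1* had the largest positive interaction of the vascular lists, at 3.85 ± 0.08 (edgeR adjusted p = 8.6e-14). Its endothelial level was alike in limb (335 and 326 CPM) and penis (286, 254 and 287 CPM), while the rest was at 24.1 and 25.1 CPM in the limb and 306 to 319 CPM in the penis. *Erg* had a negative interaction of -4.17 ± 0.10 (edgeR adjusted p = 1.2e-12), with 93.2 and 114 CPM in the rest of the limb and 9.0 to 11.9 CPM in the rest of the penis. The ratio of endothelial to other cells was thus larger in the limb for *Col15a1* and larger in the penis for *Erg*. *Notch4* (2.36 ± 0.25, edgeR adjusted p = 4.1e-06) and *Hey1* (2.04 ± 0.23, edgeR adjusted p = 8.9e-06) also had positive interactions with no call between limb and penis endothelial cells. In the Notch list 6 of 16 interactions were positive and 1 negative, and in the fetal list 7 of 11 were positive and 1 negative. *Pf4* had one of -4.24 ± 0.23 (edgeR adjusted p = 4.0e-09).

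Forelimb and hindlimb members were compared with no test, since each limb has 1 library. Of 11934 genes with at least 20 UMIs in the higher set, 115 were at least 2-fold higher in forelimb members (0.964%) and 88 in hindlimb members (0.737%). The genes that specify limb type followed the labels in endothelial sums. *Tbx5*, the forelimb factor gene (chr5:119832668-119885219, plus strand), was at 25.9 CPM in forelimb members (102 UMIs, exact Poisson 95% interval 21.1 to 31.4) and at 1.40 CPM in hindlimb members (5 UMIs, 0.453 to 3.26). *Pitx1*, the hindlimb factor gene (chr13:55825051-55836192, minus strand), was at 0.507 and 50.2 CPM (2 and 180 UMIs). The log2 ratio between limbs was 3.49 for *Tbx5* in members and 3.80 in the rest, and -5.09 and -5.10 for *Pitx1*. Both were lower in members than in the rest, where *Tbx5* was at 56.3 CPM in the forelimb and *Pitx1* at 69.1 CPM in the hindlimb. In cells with 4 or more markers they fell to 14.1 CPM and 16.0 CPM.

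The hindlimb *Hox* genes had the same direction. *Hoxc10* had 0 UMIs in forelimb members, with an upper limit of 0.936 CPM, and 35 in hindlimb members (9.77 CPM), against 24.1 CPM in the rest of the hindlimb. *Hoxc11* had 0 and 22 UMIs (6.14 CPM in the hindlimb). In hindlimb cells with 4 or more markers both were at 1.60 CPM, under 20 UMIs and so not called, and in those with exactly 3 they were at 28.4 and 16.5 CPM. *Tbx4*, the other hindlimb factor gene, was at 3.04 and 16.2 CPM. Of 12 limb position genes measured, *Tbx5* was called higher in the forelimb and *Pitx1*, *Tbx4*, *Hoxc10* and *Hoxc11* in the hindlimb. Outside that list *Hoxb9* was also higher in hindlimb members, at 2.79 and 16.2 CPM (log2 ratio -2.18). With 4 or more markers it was at 3.97 and 21.3 CPM (-2.16), and the rest of the hindlimb held 5.97 CPM.

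**Figure D4:**
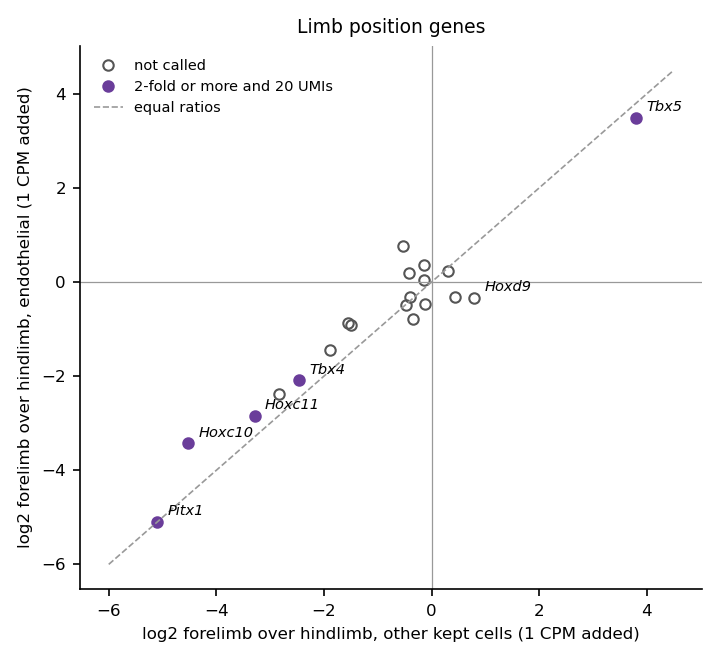
Log2 ratio of forelimb to hindlimb level (1 CPM added) of limb position genes in all other kept cells (x axis) and in endothelial members (y axis), 1 library per limb. Filled points had at least 20 UMIs and a 2-fold ratio in members, and the dashed line marks equal ratios. *Tbx5* (3.80 and 3.49) and *Pitx1* (-5.10 and -5.09) lie close to the line.

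A pair of artery genes was called between the limbs, both higher in the hindlimb. *Gja4*, an arterial gap junction gene, was at 34.3 CPM in forelimb members (135 UMIs, interval 28.7 to 40.5) and 87.6 CPM in hindlimb members (314 UMIs, 78.2 to 97.9). *Gja5* was at 10.4 and 30.1 CPM (41 and 108 UMIs). The log2 ratios were -1.33 and -1.45 in members, -1.31 and -1.45 with 4 or more markers, and 0.44 and 0.28 in the rest. The other 12 artery genes measured were under 2-fold. Keratin genes were higher in the forelimb by the rule. *Krt5*, a basal epidermis gene, was at 23.6 and 3.07 CPM, and all 5 epidermis markers measured were called, while with 4 or more markers *Krt5* was at 3.61 and 3.21 CPM. The genes *H2-Aa*, *H2-Ab1* and *H2-Eb1* of antigen-presenting cells were higher in the hindlimb by the rule (log2 ratios of -3.31, -2.50 and -2.19) and not with 4 or more markers (-0.49, 0.30 and 0.30).

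Artery and vein cells were then set apart within the members by gates. A cell passed the artery gate with UMIs of 3 or more of *Gja4*, *Gja5*, *Hey1*, *Sox17*, *Efnb2* and *Dll4* and none of *Nr2f2*. It passed the vein gate with *Nr2f2*, at least 1 of *Aplnr*, *Ephb4* and *Nrp2*, and at most 1 artery gene. By the rule the artery gate held 38 and 38 cells and the vein gate 106 and 73. *Nr2f2* held a UMI in 24.1% and 27.3% of the other limb cells. Counting cells with 4 or more markers, the artery gate held 37 and 36 cells and the vein gate 84 and 56, and the values that follow are for these. The genes of the gates describe the gates.

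Of 4568 genes with at least 20 UMIs outside the rule and the gates, 66 were at least 2-fold higher in the artery gate in both libraries (1.44%) and 150 in the vein gate (3.28%). *Igfbp3*, which encodes a carrier of insulin-like growth factors, was at 953 and 1312 CPM in artery cells and 114 and 159.6 CPM in vein cells. *Unc5b* was at 238 and 349 CPM against 23.4 and 9.97 CPM, and *Btnl9* at 135 and 113 CPM against 9.35 and 5.98 CPM. The Notch receptor genes *Notch1* (249.8 and 320.2 CPM against 87.3 and 122 CPM) and *Notch4* (115 and 94.5 CPM against 12.5 and 31.9 CPM) and the chemokine gene *Cxcl12* (177 and 155 CPM against 24.9 and 51.9 CPM) were also called. *Prnd*, 1 of the 25 leading genes of all members, was at 496 and 528 CPM against 90.4 and 146 CPM. *Sox7* was at 254 and 333 CPM against 88.9 and 65.8 CPM.

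In the vein gate *Prr16* was at 48.3 and 104 CPM and *Tll1*, which encodes a protease of the tolloid family, at 35.9 and 51.9 CPM, and both had 0 in the artery cells of both libraries. *Prr16* was at 123 and 166 CPM in the rest of the limb, above the vein cells, and was called lower in all members with 4 or more markers (37.5 and 38.9 CPM). *Tll1* was at 14.7 and 18.4 CPM in the rest. Of the 15 genes with the largest vein ratios by the rule, these 2 were called with 4 or more markers, while the other 13 were under 20 UMIs in at least 1 library. *Nrxn3*, for example, was at 39.0 and 33.9 CPM in vein cells and 0 in artery cells, and *Loxl1* at 29.6 and 16.0 CPM and 0. *Meox2* was higher in vein cells, at 167 and 154 CPM against 50 and 60.4 CPM, while its partner *Tcf15* was at 101 and 71.8 CPM in vein and 158 and 129 CPM in artery cells. *Fabp4* was at similar levels in both gates, 1403 and 1348 CPM in the forelimb and 325 and 467 CPM in the hindlimb. *Plvap*, the basement membrane genes and the caveolar genes were not called in either direction. With 36 to 84 cells per gate, differences in genes under 20 UMIs were not detectable at this depth.

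**Figure D5:**
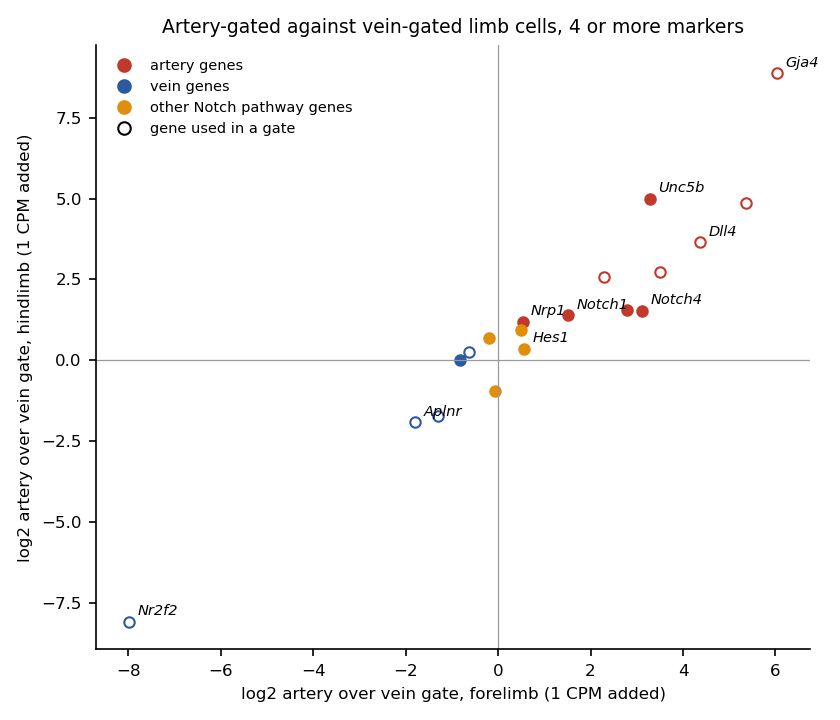
Log2 ratio of artery-gated to vein-gated level (1 CPM added) in the forelimb (x axis) and hindlimb (y axis) for artery, vein and other Notch pathway genes with at least 20 UMIs in the higher gate of both libraries, among cells with 4 or more markers. Each point is a gene in 1 library per limb, and open points are genes that set the gates. *Unc5b*, *Notch4* and *Notch1*, outside the gates, lie in the upper right quadrant, as do the gate genes *Dll4* and *Gja4*.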

How the data were processed

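Single-cell RNA libraries of mouse forelimb, hindlimb and penis (5 in all, 10X Genomics) were analysed. Each deposited matrix holds unnormalized UMI counts, which the authors made with Cell Ranger 7.0.0 on mm10, per the labels and the submitters' processing notes. The endothelial cells and the gene lists were chosen with earlier results of these data known. Limb cells were kept with 100 to 9000 detected genes, at most 10% mitochondrial UMIs and a log10 gene to log10 UMI ratio of at least 0.8. Penis cells were kept with 500 to 6000 genes, at most 5% mitochondrial UMIs and the same ratio. Ambient RNA was not removed. Scrublet (scanpy 1.11.5) called 0 limb cells and 1 penis cell, so no doublets were removed.

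UMIs were summed per library and cell set. Ratios within limb libraries and between the limbs used CPM plus 1 and at least 20 UMIs in the higher set, called at 2-fold, with no test. The forelimb and hindlimb were taken as 1 limb group against 3 penis libraries in edgeR 4.0.16 (R 4.3.3, TMM, filterByExpr, quasi-likelihood), with Benjamini-Hochberg adjustment over all genes tested, called at an adjusted p under 0.01 and a log2 fold-change beyond 1. Standard errors were derived from the fold-change and its test statistic. The interaction was fitted on 10 sums with the library as a block. DESeq2 1.42.0 was the alternative. Rule genes were given no test. Intervals are exact Poisson or binomial 95% intervals and cover counting error only. On simulated counts with a log2 fold of 2, the limb-penis test recovered 187 of 197 changed genes among 13884 and the interaction 134 of 198 among 20238, with 0 false calls in each. The simulation gave all genes 1 common dispersion (0.00734 and 0.00375) and no difference between forelimb and hindlimb. It therefore does not cover genes that vary more between libraries, such as those that rest on 1 library.

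Genes named beyond the lists were those with the largest ratios or fold-changes in each comparison (25 higher and 10 lower against the rest, 15 each way against the penis and between gates, 10 each way for the interaction and between limbs), leaving out predicted genes. For the comparisons with the rest and with the penis they also had to be at 50 CPM or more in every library of the higher set and, against the penis, to have groups that did not overlap, so genes of lower level with larger ratios are not among them. Gene positions are from GENCODE M21 (GRCm38), in which 365 of 365 named symbols matched, and promoter windows are from RefSeq. The median log2 difference over all genes, limb minus penis, was -0.003 with TMM scaling and 0.009 with library totals.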

Additional observations from a re-analysis of the deposited data

Results flagged for a closer look

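Genes were marked where the limb-penis difference in endothelial cells departed from that in all other kept cells by edgeR's interaction test, and the 10 largest in each direction are given here as fitted log2 interactions. Where a set of libraries had 0 UMIs, as for the first 4 genes, the fitted value depends on the fit and is no bound on the difference.

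The positive interactions were *Nckap1l* (9.70), *Rasgrp1* (9.32), *Tspoap1* (9.32), *Il1rl1* (8.40), *Ctxn3* (5.91), *Crybb2* (5.44), *Cd74* (5.03), *Lrrc75aos1* (4.98), *Evi2a* (4.78) and *Fam163a* (4.67). Several were near the floor. Forelimb and hindlimb members held 2 and 2 UMIs of *Ctxn3*, 2 and 4 of *Crybb2*, 3 and 4 of *Tspoap1*, and 5 and 7 of *Rasgrp1*. With 4 or more markers *Rasgrp1* (edgeR adjusted p = 0.033), *Tspoap1* (0.090), *Il1rl1* (0.27) and *Ctxn3* (0.098) were not called, and *Il1rl1* went from 17.0 to 0.802 CPM in the hindlimb and from 9.13 to 12.3 CPM in the forelimb. *Nckap1l*, *Il1rl1*, *Cd74* and *Evi2a* are known from blood cells, and limb endothelial cells held each of them at 17.0 CPM or less. *Cd74* was at 3.30 and 16.5 CPM in limb endothelial cells, 0.628 to 1.77 CPM in penis endothelial cells and 42.1 to 78.7 CPM in the rest of the penis. With 4 or more markers it was at 3.25 and 0.802 CPM in the limb, with an interaction of 2.87, and hindlimb cells with exactly 3 markers held 52.2 CPM.

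The negative interactions were *Crct1* (-13.23), *Bpifb1* (-9.65), *Cnfn* (-6.39), *Rasal1* (-5.82), *Plxna4os3* (-5.65), *Tll1* (-4.83), *Mannr* (-4.73), *Mecomos* (-4.62), *Foxc2* (-4.42) and *Gpr37* (-4.42). Limb members held 0 UMIs of *Crct1* and *Bpifb1*. Forelimb and hindlimb members held 1 and 0 UMIs of *Rasal1* and of *Plxna4os3*, and 3 and 0 of *Gpr37*. With 4 or more markers *Crct1* (edgeR adjusted p = 0.010) and *Bpifb1* (0.017) were not called. *Crct1* and *Cnfn*, genes of cornifying epithelium, rested on 1 library: penis library 3 held 41.8 and 157 CPM in its endothelial sum, while penis libraries 1 and 2 held at most 0.419 CPM of either gene. *Tll1* and *Foxc2* were high in every penis library. *Tll1* was at 275, 254 and 356 CPM there, against 15.2 and 16.7 CPM in limb endothelial cells, and its level in the rest was 9.23 to 18.4 CPM in all 5 libraries.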

How the results depend on the processing

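The forelimb share of 1.79% became 1.40% with 4 or more markers, 5.95% with 2 or more, 1.47% with markers read at 2000 UMIs and 1.59% without the top 10% of doublet scores, and the hindlimb share of 1.56% became 1.16%, 5.94% and 1.30% in the first 3. Genes higher than in the rest went from 644 to 217 with 2 or more markers. Genes lower than in the rest went from 566 to 1851 (4 or more), 53 (2 or more), 2268 (2000 UMIs), 934 (without the top doublet scores) and 204 (5 CPM added). Genes lower in limb than penis went from 1036 to 1727 with 2 or more markers. Positive interactions went from 1055 to 614 (4 or more), 390 (2 or more) and 686 (2000 UMIs), and ranged from 633 to 1080 when a library was left out. Genes higher in forelimb went from 115 to 41 (2 or more markers) and 46 (at least 50 UMIs), and those higher in hindlimb from 88 to 154 (without the top doublet scores) and 37 (at least 50 UMIs). Artery and vein gate genes, 150 and 442 by the rule, were 546 and 1910 with no minimum and 66 and 150 with 4 or more markers. The median share of 24.0% and 24.7% was 13.3% and 14.3% at 1000 UMIs and 51.0% and 53.1% unthinned.

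The *Cd74* interaction of 5.03 turned to -0.72 with 2 or more markers. That of *Cnfn* (-6.39) turned to 0.92 at 2000 UMIs and ranged from -7.24 to 0.11 when a penis library was left out, reaching 0.11 without library 3. Causes were not tested. The 30 genes named for their limb-penis fold-change were at 50 CPM or more in the higher group. They kept their direction and side of the threshold in all 330 combinations of gene and setting. These genes were picked as the largest called fold-changes of the same data, so a lost call was unlikely from the start. The 330 combinations do not cover genes of lower level or list genes such as *Cldn5* (-1.06, called, and -0.64 with 4 or more markers, not called). In all, 873 to 1168 genes were higher and 852 to 989 lower when a library was left out, and 910 and 820 by DESeq2. Of the named interactions, 73 combinations of gene and setting lost the call and 3 reversed direction. A fit without 1 limb library assumes that the lone limb sum varies like the penis sums. Leaving out cells that Scrublet calls was not run, as it called 0 limb cells. The alternatives without the top doublet scores, those of the interaction on markers and depth, and the gates with 4 or more markers were chosen after seeing the data. No paired analysis was possible because no animal or number ties a limb library to a penis library.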
